A study of Mus musculus with 28 samples.

Results

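Transcription factors that give hair follicle stem cells their identity were followed in cells from old mice (24 months) and young mice (6 months). The set was 9 genes named by symbol, Sox9, Lhx2, Tbx1, Nfatc1, Foxc1, Nfib, Runx1, Tcf7l1 and Tcf7l2, of 18274 genes named in any of the 5 deposited tables. Every row or peak that a table assigns to one of them was taken: 1 of 597 RNA rows, 28 of 7849 ATAC-seq peaks, 38 of 21390 H3K4me3 peaks, 32 of 6789 peaks of RNA polymerase II (Pol2) and 61 of 67985 H3K27me3 peaks. ATAC-seq, which counts cuts by a transposase in open chromatin, was done on 4 old and 4 young samples. RNA-seq and H3K27me3 ChIP-seq had 3 old and 3 young samples each, and H3K4me3 and Pol2 ChIP-seq had 2 old and 2 young samples each. All cells were isolated from skin of mice labelled as strain 132-C67BL/6J, without a stated transgene or treatment, as cells carrying both CD34 and α6 integrin. The series calls the samples biological replicates, and the labels do not say whether 1 sample holds cells of 1 mouse or of several.

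Hair follicle stem cells rest in the bulge, the lower end of the permanent follicle, and are called into action at the start of each hair growth phase. Their identity and their rest are held by a small network of DNA-binding proteins that often bind the same stretches of chromatin and one another's genes. H3K4me3 marks active and poised promoters, and spreads far over the genes that define a cell type. H3K27me3 is left by Polycomb on silent developmental genes, and a promoter with both marks is called bivalent. Pol2 is the enzyme that transcribes these genes.

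SOX9, an HMG-box protein, specifies the stem cells in the embryo and keeps them in the adult bulge. LHX2, a LIM homeodomain protein, keeps them from differentiating, and TBX1, a T-box protein, sustains their self-renewal over repeated hair cycles. NFATC1, a factor switched on through calcineurin, and FOXC1, a forkhead protein, hold or return the cells to rest. NFIB, of the nuclear factor I family, acts in the bulge on the stem cell programme and on signals to the neighbouring melanocyte stem cells. TCF7L1 and TCF7L2 are HMG-box partners of β-catenin at Wnt target genes, and RUNX1, which binds DNA with CBFB, promotes entry into hair growth.

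The label of the cells was read against 6 genes listed as bulge markers, the sort markers Cd34 and Itga6 with Krt15, Krt5, Krt14 and Lgr5. Of these, Itga6, Krt5 and Krt14 are not particular to the bulge. All 6 had an H3K4me3 promoter peak and a Pol2 promoter peak in the authors' deposited tables, where a promoter peak is one within 1 kb of a start. Of 4 immune markers 1 had an H3K4me3 promoter peak, as had 3 of 4 fibroblast, 1 of 4 melanocyte, 2 of 4 interfollicular and 0 of 2 endothelial markers, and none of these lists had a Pol2 peak. The old ATAC-seq libraries held 1572998 to 1946804 counts in the listed peaks and the young ones 2456110 to 2773284, which are sums over a selected list and not depths. The RNA table holds a mean over all libraries and a comparison of the ages, and the ChIP-seq tables hold values per age. None of them holds values per sample, so the spread between samples cannot be shown for them and their depth is unknown.

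Of the 9 factors, the authors' deposited RNA table, which lists genes with an adjusted p up to 0.1, holds Nfatc1 alone. For Nfatc1 the authors' deposited table gives a mean normalized signal of 25268 over all libraries and a log2 fold change, old over young, of −0.34 (SE 0.118, DESeq2 adjusted p = 0.0948), so that it missed the threshold of 0.05. None of the 9 genes was called at that threshold, which is 0 of the 1 listed. Of the 597 listed genes 56.8% were called, but these were already selected on the adjusted p, so the share is no rate for the 9. Nothing is known from that table of the levels of the other 8. In bulk samples such as these, fewer cells of a type and less RNA or mark per cell cannot be told apart.

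The promoters behind the largest contrasts are shown here as the 250 bases before a RefSeq start (GRCm38.p6, 5′ to 3′ on the gene's strand, CG dinucleotides in capitals). Of the 9 genes 6 had windows in that table, 10 in all, and Sox9, Nfatc1 and Nfib had none. Runx1 and Tcf7l2 are shown with both of their starts because the marks differ between these starts, and Lhx2 and Tcf7l1 because they carry the widest and the narrowest main H3K4me3 peak. Pol2 also differed between the starts of Lhx2 and between those of Tbx1. The Lhx2 window shown is the one without a Pol2 peak.
Runx1, proximal start, chr16:92697330-92697579, minus strand: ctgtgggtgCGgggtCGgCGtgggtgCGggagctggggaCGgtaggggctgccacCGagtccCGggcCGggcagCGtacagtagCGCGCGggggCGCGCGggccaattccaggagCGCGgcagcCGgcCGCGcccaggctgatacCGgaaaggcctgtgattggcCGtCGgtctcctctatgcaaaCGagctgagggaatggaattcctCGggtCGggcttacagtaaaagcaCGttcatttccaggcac
Runx1, distal start, chr16:92826075-92826324, minus strand: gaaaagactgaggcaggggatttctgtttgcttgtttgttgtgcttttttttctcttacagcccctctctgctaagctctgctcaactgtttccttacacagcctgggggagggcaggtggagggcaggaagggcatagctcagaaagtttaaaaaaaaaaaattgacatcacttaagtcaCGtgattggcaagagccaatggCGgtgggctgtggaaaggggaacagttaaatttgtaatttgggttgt
Tcf7l2, first start, chr19:55741560-55741809, plus strand: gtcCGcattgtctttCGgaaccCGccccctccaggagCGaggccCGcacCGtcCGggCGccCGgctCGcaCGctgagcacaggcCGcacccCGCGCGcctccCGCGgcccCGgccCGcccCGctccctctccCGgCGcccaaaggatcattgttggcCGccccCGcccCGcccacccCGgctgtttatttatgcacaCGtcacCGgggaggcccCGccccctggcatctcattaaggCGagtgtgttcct
Tcf7l2, internal start, chr19:55895071-55895320, plus strand: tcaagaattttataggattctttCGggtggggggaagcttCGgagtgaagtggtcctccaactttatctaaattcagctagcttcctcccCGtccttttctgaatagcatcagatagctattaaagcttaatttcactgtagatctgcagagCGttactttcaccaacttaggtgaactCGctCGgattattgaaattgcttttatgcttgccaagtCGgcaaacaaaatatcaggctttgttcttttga
Lhx2, first start, chr2:38339031-38339280, plus strand: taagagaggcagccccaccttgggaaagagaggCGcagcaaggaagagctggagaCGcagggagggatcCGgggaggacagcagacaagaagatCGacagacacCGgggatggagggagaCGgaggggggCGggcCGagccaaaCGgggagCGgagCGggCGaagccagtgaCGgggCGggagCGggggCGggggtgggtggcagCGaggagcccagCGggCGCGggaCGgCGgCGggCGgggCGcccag
Tcf7l1, chr6:72789046-72789295, minus strand: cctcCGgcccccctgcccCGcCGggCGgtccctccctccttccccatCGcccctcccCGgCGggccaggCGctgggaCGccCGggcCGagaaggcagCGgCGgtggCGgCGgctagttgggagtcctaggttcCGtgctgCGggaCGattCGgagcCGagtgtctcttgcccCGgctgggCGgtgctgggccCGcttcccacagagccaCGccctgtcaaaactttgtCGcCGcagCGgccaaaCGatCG
The proximal start of Runx1 had 27 CG dinucleotides and 67.6% G and C, and the distal start had 2 and 45.6%. The first start of Tcf7l2 had 30 CG dinucleotides, and its internal start had 7. Lhx2 had 25 and Tcf7l1 had 29, although their H3K4me3 peaks differed greatly in width. The median of all 32851 windows was 6 CG dinucleotides and 52.4% G and C, and 8.56% of windows held as many CG dinucleotides as the proximal Runx1 start, against 81.2% for the distal one.

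Short motifs of the factors' own families were looked for in these windows. On both strands, the SOX cores ACAAT and ACAAAG were in 1 and 2 of the 10 windows (27.7% and 16.5% of all windows). The NFI site TTGGCA was in 2 windows, the distal Runx1 and the internal Tcf7l2 ones (12.3% of all), and the NFAT core GGAAAA was in 2 (20.4%). The RUNX core TGTGGT and the forkhead core TAAACA were in 1 each (14% and 12% of all), and the TCF core CTTTGA, the LIM homeobox core TAATTA and the T-box core GGTGTGA were in none (13.8%, 4.84% and 3.33% of all). A match of letters is a description of the window and not a binding site.

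H3K4me3 was lower in old cells at the promoters of all 9 factors, by about as much as at other promoters. The 9 genes had 10 promoter peaks, with Tcf7l2 marked at both starts, and all 10 were called lower (FDR under 0.05 in the authors' deposited table), beside 94.3% of all H3K4me3 promoter peaks, and 0 higher, beside 0.037%. Their log2 fold changes ran from −1.83 to −1.18 with a median of −1.43 in the authors' deposited table, against −1.42 over all 13505 promoter peaks. The sources used here do not give the normalization, on which a shift shared by the whole table depends.

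Among the factors that hold the stem cell state, the authors' deposited table gives Sox9 −1.68 (FDR 7.77e-06), Lhx2 −1.56 (FDR 0.000274) and Tbx1 −1.83 (FDR 2e-05). The 2 factors of rest, Nfatc1 at −1.35 (FDR 0.000601) and Foxc1 at −1.51 (FDR 0.000262), and Nfib at −1.30 (FDR 0.00181) lay close to the table's median in the authors' deposited table. Of the Wnt partners, the authors' deposited table lists Tcf7l1 at −1.66 (FDR 5.94e-07) and Tcf7l2 at −1.31 (FDR 0.000101) at its first start and −1.20 (FDR 0.00511) at the internal one. Runx1, with −1.18 (FDR 0.00141) at the proximal start in the authors' deposited table, had the smallest loss of the 10. Over the whole table, 85.8% of promoter peaks had a fold change as low as that of Runx1 or lower.

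The mark reached far at most of these promoters. The Lhx2 peak spanned 35.1 kb (chr2:38336715-38371813), which covers the gene of 30.5 kb, and only 0.0592% of H3K4me3 promoter peaks are as wide. Nfib had 32.2 kb, Nfatc1 29.2 kb, Foxc1 26.2 kb, Runx1 19.5 kb, Tbx1 15.0 kb and Tcf7l2 14.3 kb. The gene bodies of Foxc1 (3.99 kb), Sox9 (5.55 kb) and Tbx1 (9.69 kb) also lie wholly inside their peaks. Sox9, with 10.3 kb, lay just above the mark of 10 kb, Tcf7l1 with 5.40 kb below it, and the internal start of Tcf7l2 had 1.19 kb, against a median of 3.73 kb over all promoter peaks. By widest promoter peak, 8 of the 9 factors (88.9%) reached 10 kb, against 417 of 11585 genes (3.60%). Other lists reached 10 kb in 5 of 6 bulge markers, 12 of 27 other transcription factors of follicle and epidermis, 3 of 13 genes reported downstream of the factors and 1 of 17 of their partners and cofactors. Peaks were merged over samples of both ages in the deposited table, so that 1 width stands for old and young alike and cannot show a change of width. Over the whole table, promoter peaks of 10 kb or more had a median log2 fold change of −1.38 and narrower ones −1.43.

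**Figure D1:**
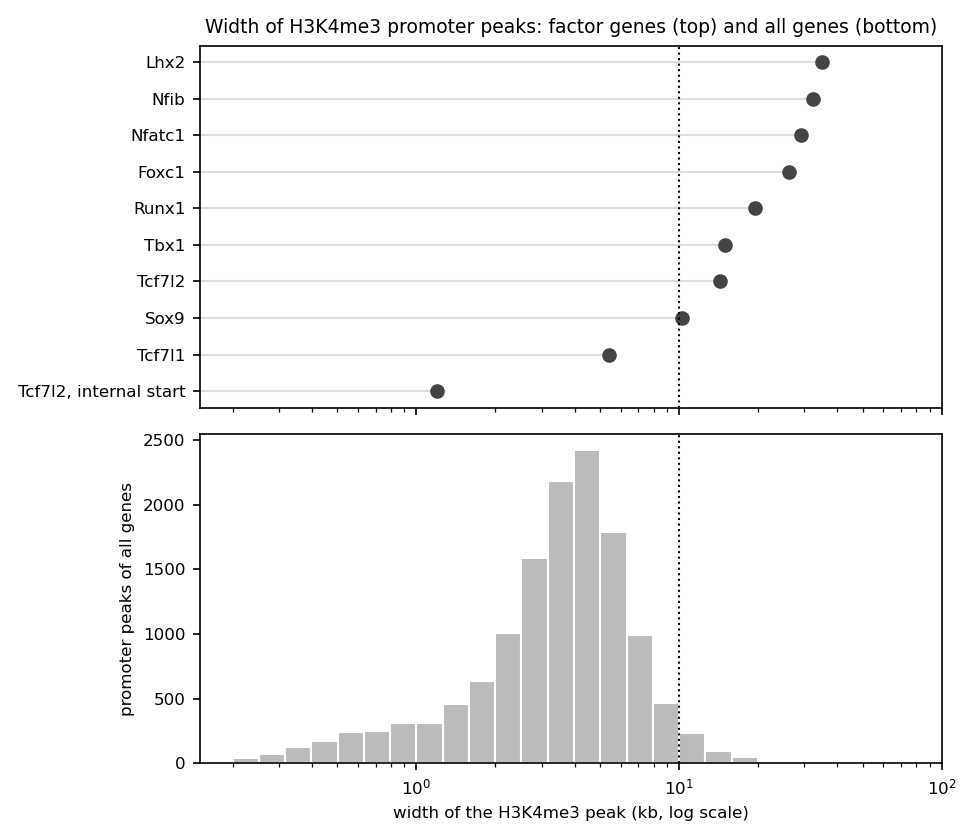
Width of the H3K4me3 promoter peaks of the 9 factor genes (top, 1 point per peak) and of all 13505 promoter peaks (bottom, bars give peaks per bin), both on 1 log axis in kb. The dotted line is at 10 kb: 8 of the 10 peaks lie to its right, from Sox9 at 10.3 kb to Lhx2 at 35.1 kb.

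Per kb of peak, the mark was also dense on most of these promoters. On the log2 scale of the authors' mean normalized read count per kb, the order was the following, as computed from the authors' deposited table. Tbx1 had 10.28 in old cells and 12.11 in young cells, Sox9 9.80 and 11.48, Lhx2 9.68 and 11.25, Nfib 9.29 and 10.60, and Foxc1 9.28 and 10.79. Below them Nfatc1 had 8.82 in old cells and 10.17 in young cells, Tcf7l2 8.79 and 10.10, Runx1 8.77 and 9.95, and Tcf7l1 7.97 and 9.64. The internal start of Tcf7l2 stood apart with 6.28 in old cells and 7.48 in young cells, under the medians of all promoter peaks, 7.49 and 8.90. Promoter peaks of 10 kb or more had higher medians, 8.17 in old cells and 9.56 in young cells, so part of this density is shared by wide peaks. Neighbours in this order cannot be separated statistically, because values per sample were not analysed here.

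Away from the promoters, 12 of the 28 other H3K4me3 peaks of the 9 genes were called lower and none higher, beside 53.2% and 0.698% of all H3K4me3 peaks outside promoters. With the promoter peaks that made 22 of 38 lower and 0 higher, beside 79.1% and 0.281% of all H3K4me3 peaks. Nfatc1 held 7 of these 12 inside its gene, and the authors' deposited table gives −4.51 (FDR 6.7e-05) and −4.19 (FDR 6.71e-07) for a pair of short intronic peaks of 0.389 and 0.355 kb. At the first of them the level was 0.47 in old cells and 4.98 in young cells, and at the second 1.90 and 6.09 (log2 of the mean normalized count, authors' deposited table). With old levels so low, the sizes of these 2 fold changes are uncertain. Of the other 5 called peaks of Nfatc1, the authors' deposited table gives −1.23 (FDR 0.000262) at the 3′ end of the gene, and −1.41 (FDR 0.0101), −1.25 (FDR 0.022), −1.07 (FDR 0.0314) and −0.94 (FDR 0.00876) in introns. Single called peaks followed in Lhx2 (−1.20), Tbx1 (−1.77), Runx1 (−1.60), Nfib (−0.72) and Tcf7l2 (−1.15), all from the authors' deposited table.

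Pol2 was lower in old cells at every promoter peak of the factors, and 6 of the 9 peaks were called. Promoter peaks numbered 9, at 8 genes, and Tcf7l1 had no Pol2 peak assigned to it. The calls are from the authors' deposited table, beside 0% higher and 79.1% lower of all Pol2 promoter peaks, and the median log2 fold change was −1.85 against −2.28 over all 3743. Called lower were Sox9 at −2.09 (FDR 0.0101), both Tbx1 peaks at −2.27 (FDR 0.00768) and −1.85 (FDR 0.0328), and Foxc1 at −1.74 (FDR 0.0341) in the authors' deposited table. Tcf7l2 had the largest loss, −2.51 (FDR 0.00273), and Runx1 had −1.99 (FDR 0.0102), likewise in the authors' deposited table. Lhx2 at −1.36 (FDR 0.089), Nfatc1 at −1.33 (FDR 0.106) and Nfib at −1.30 (FDR 0.106) were not called in the authors' deposited table.

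The 3 promoter peaks without a call were the 3 widest, 20.4 kb at Lhx2, 16.3 kb at Nfib and 13.8 kb at Nfatc1. The 6 called ones were 2.46 to 6.79 kb wide. Over the whole Pol2 table, 69 promoter peaks of 10 kb or more had a median log2 fold change of −1.20 with 11.6% called lower, and 3674 narrower ones had −2.30 with 80.4% called lower in the authors' deposited table. The values of the 3 factors lay near the median of wide Pol2 peaks. A missed threshold with 2 samples per age does not show that Pol2 was equal at the 2 ages there.

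**Figure D2:**
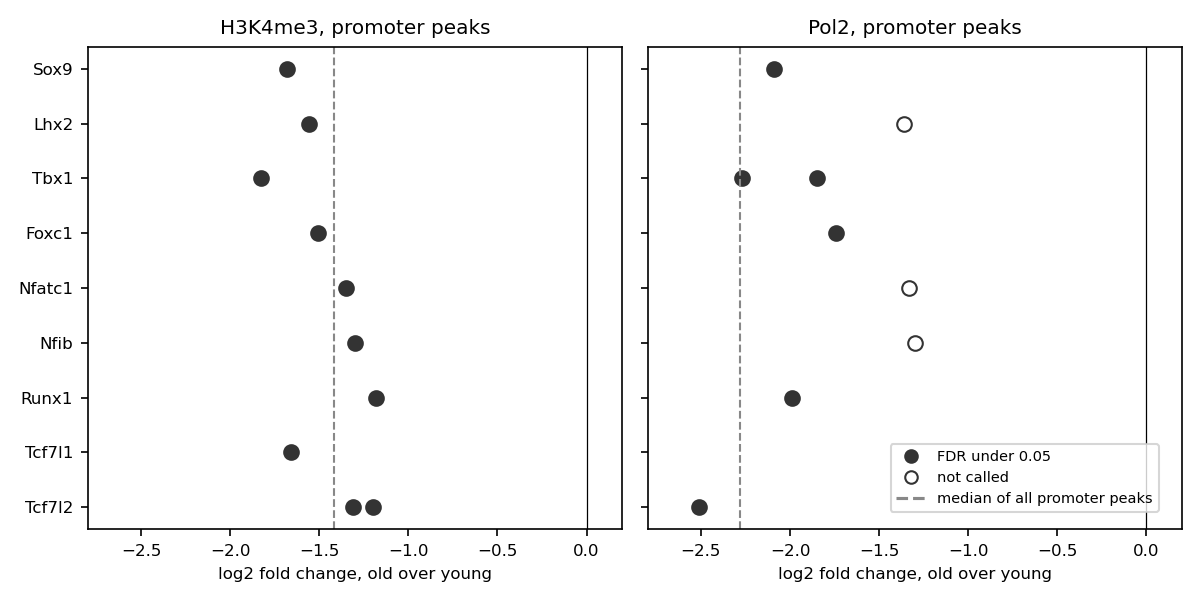
Log2 fold change, old over young, of H3K4me3 (left) and Pol2 (right) at each promoter peak of the factor genes, from the authors' deposited tables. Filled points have an FDR under 0.05, open points do not, and dashed lines are the medians of all promoter peaks, −1.42 and −2.28. All points lie left of 0, and the 3 open Pol2 points are Lhx2, Nfatc1 and Nfib.

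Nfatc1 and Nfib had Pol2 over most of their length. Over the 107 kb of Nfatc1 lay 7 Pol2 peaks that cover 75.7 kb, among them 1 of 36.6 kb (chr18:80665825-80702388) at −0.89 (FDR 0.324) and 1 of 19.0 kb at −1.05 (FDR 0.239), from the authors' deposited table. The 1 called Pol2 peak of Nfatc1 was at its 3′ end, −1.70 (FDR 0.0356) in the authors' deposited table, beside a called H3K4me3 peak. Over the 217 kb of Nfib lay 65 Pol2 peaks, 9 assigned to Nfib and 56 to 1 short gene without a symbol (ENSMUSG00000084595) that lies inside Nfib, covering 200 kb together. Their median log2 fold change was −0.82 with a range of −1.44 to 0.05, and 0 of the 65 were called in the authors' deposited table. That gene spans chr4:82439410-82439514, and of these peaks only the one from 66.4 to 69.2 kb of the Nfib start overlaps it. Signal of Nfib and of that gene cannot be told apart in that peak. Upstream of Nfib, Pol2 peaks not assigned to it were called lower in the authors' deposited table. They lay from −34.4 to −29.5 kb (−1.72, FDR 0.023) and from −7.43 to −5.52 kb (−1.88, FDR 0.0342) of its start. A further one, from −88.4 to −87.6 kb, was not called (−1.25, FDR 0.12, authors' deposited table).

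Of all 32 Pol2 peaks of the factors, 31 had a negative fold change and 9 were called lower (beside 52.9% of all Pol2 peaks), with none higher (beside 0.0442%). Outside promoters the called ones were the 3′ peak of Nfatc1, a 3′ peak of Sox9 at −1.90 (FDR 0.0228) and an intronic peak of Tcf7l2 at −1.95 (FDR 0.00864) in the authors' deposited table. The 1 peak with a positive value lay in Runx1 (0.34, FDR 0.793, authors' deposited table).

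**Figure D3:**
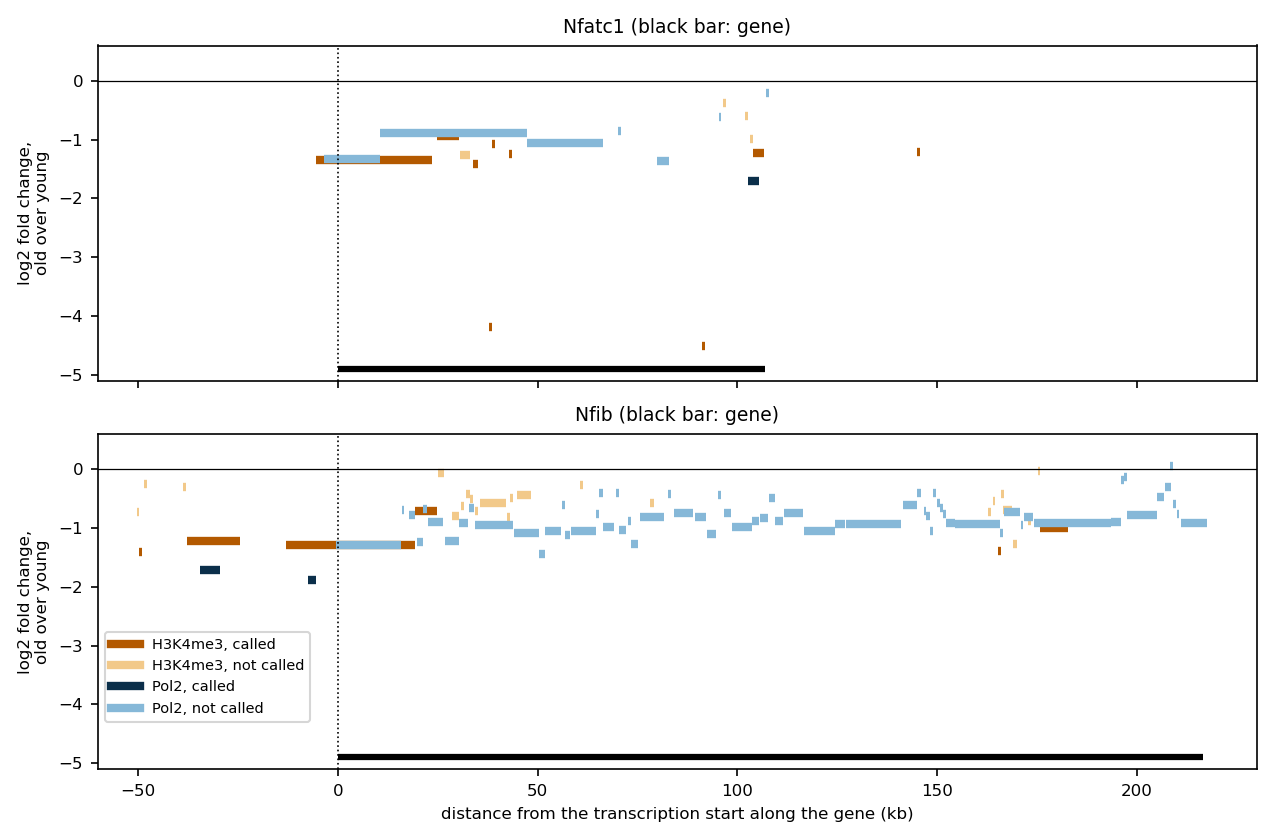
Log2 fold change, old over young, of each H3K4me3 and Pol2 peak along Nfatc1 (top) and Nfib (bottom), against the distance from the start in kb. Bars span the peaks, dark ones have an FDR under 0.05 in the authors' deposited tables, and the black bar is the gene. The Pol2 peaks over the bodies of both genes are mostly pale and lie between −1.44 and 0.05 in Nfib.

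H3K27me3 was missing around most of these genes. No H3K27me3 peak was assigned to, or lay within 20 kb of, Sox9, Lhx2, Tbx1, Nfatc1 or Foxc1, in a table of 67985 peaks from both ages. The bodies of Nfib, Tcf7l1 and Tcf7l2 held none either. Of the 10 H3K4me3 promoter peaks 1 (10%) overlapped an H3K27me3 peak by at least 1 bp, against 15.1% of all H3K4me3 promoter peaks. That peak was the proximal Runx1 one. It holds a small H3K27me3 peak at −1.73 kb from the start (−0.13, FDR 0.962, authors' deposited table) and overlaps another by 59 bp at its upstream edge (0.34, FDR 0.759, authors' deposited table). Neither lies over the start.

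Runx1 was the exception among the 9, with 47 of the 61 H3K27me3 peaks. Of these, 31 lie over the gene, and the proximal start with its broad H3K4me3 peak sits at the edge of this block, as the map of Runx1 shows. The authors' deposited table calls 1 peak lower, of 6.05 kb (chr16:92818837-92824882). It begins 0.896 kb inside the gene from the distal start the table assigns. Its levels were 8.51 in old cells and 9.16 in young cells, with a log2 fold change of −0.66 (FDR 0.00807, authors' deposited table). In the window before the distal RefSeq start, the one poor in CG dinucleotides, no H3K27me3, H3K4me3 or Pol2 peak was found. A peak of 1.82 kb at −102 kb from the start the table assigns was called higher at 1.71 (FDR 0.0161) in the authors' deposited table. The other 45 peaks were not called, and the 47 had a median of 0.02 and a range of −1.38 to 1.71, from the authors' deposited table.

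**Figure D4:**
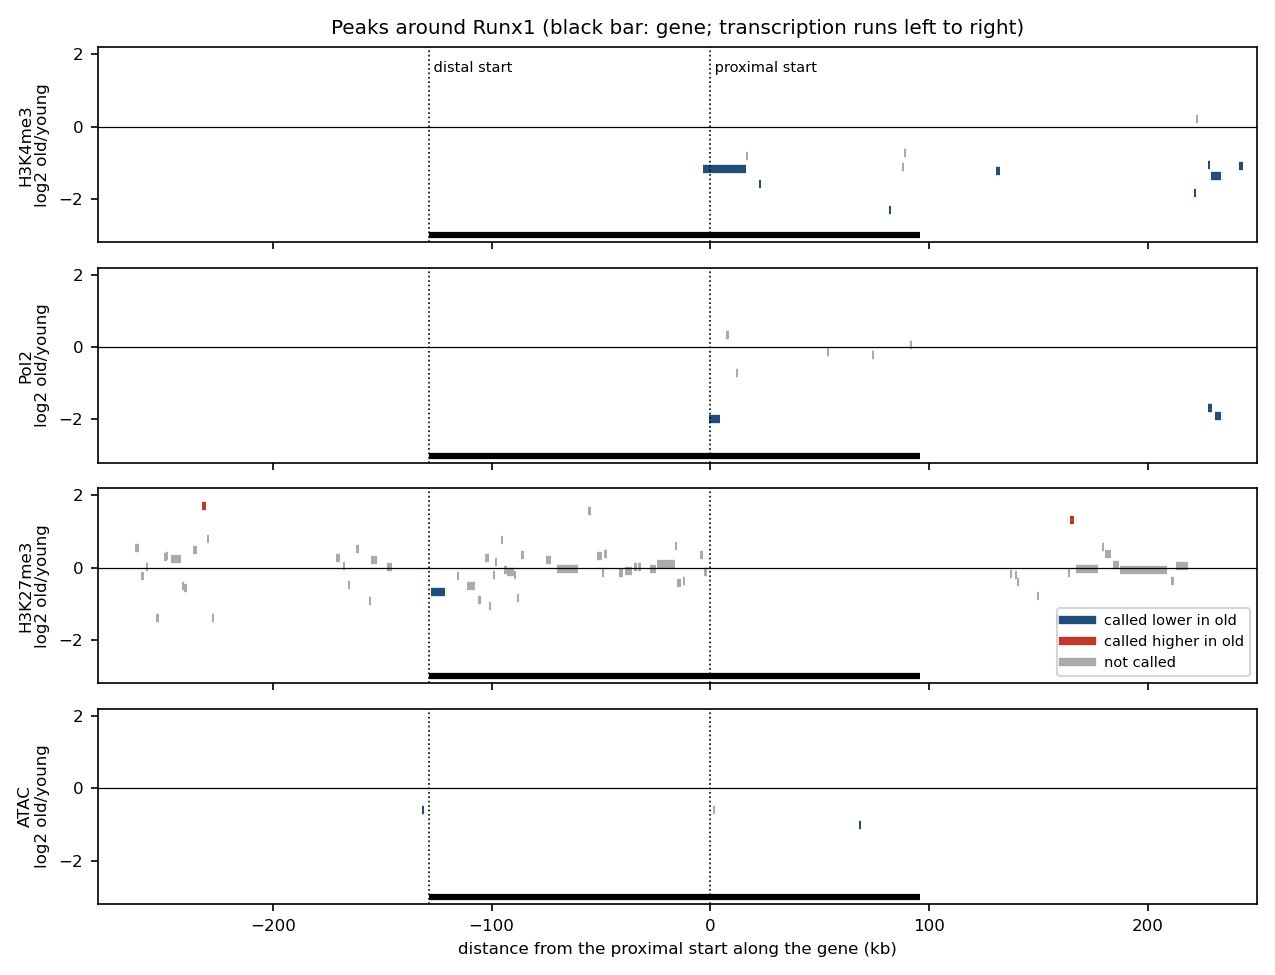
Log2 fold change, old over young, of H3K4me3, Pol2, H3K27me3 and ATAC-seq peaks around Runx1, against the distance from the proximal start in kb, with the direction of transcription from left to right. Bars span the peaks, blue is called lower in old, red called higher and grey not called, and the black bar is the gene. H3K27me3 peaks are spread over the stretch between the distal and the proximal start, and H3K4me3 and Pol2 are at the proximal start.

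Elsewhere the mark was sparse. Nfib had an H3K27me3 promoter peak of 5.53 kb at an upstream start (chr4:82702530-82708055), far from its H3K4me3 peak, with levels of 8.30 in old cells and 8.28 in young cells (0.01, FDR 0.99, authors' deposited table). The other 5 peaks of Nfib and the 4 distal peaks of Tcf7l1 were not called, with the largest values at −0.84 (FDR 0.511) and −0.73 (FDR 0.245) in the authors' deposited table. Of 4 distal peaks of Tcf7l2, the authors' deposited table calls 1 higher, 110 kb past the internal start the table assigns, with a level of 5.38 in old cells, while the young level is the lowest of the table and no measured count, so that its fold change of 5.55 (FDR 0.000199) is no measured size. In all, 1 of the 61 peaks was called lower and 2 higher, beside 2.6% and 2.66% of all H3K27me3 peaks, and 1 of 2 promoter peaks was called lower, beside 9.19%, and 0 higher, beside 3.14%.

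Open chromatin was tested anew, because the ATAC-seq table gives a count per library. The table lists peaks that its authors had already selected on the difference between the ages, so every listed peak differs to some degree, and adjusted p-values do not bound the false calls. Listed peaks belonged to 6 of the 9 factors: 14 to Nfib, 6 to Tcf7l2, 3 each to Nfatc1 and Runx1, and 1 each to Lhx2 and Foxc1. None was within 1 kb of a start, and Sox9, Tbx1 and Tcf7l1 had none. Summed over the 28 peaks, counts were 5169 to 5756 in old libraries and 7248 to 8299 in young libraries.

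With no scaling between libraries, 25 of the 28 peaks were lower in old cells and 3 higher, and the median log2 fold change was −0.62 against −0.64 over all listed peaks. The edgeR quasi-likelihood test called 11 lower, beside 46.4% of all listed peaks, and 1 higher, beside 5.43%. With TMM scaling on the listed peaks, which moves the median of all log2 fold changes up by 0.59, it called 1 lower (beside 0.701%) and 3 higher (beside 13.9%). The direction of the calls thus follows the scaling, 91.7% of calls lower with none and 25% with TMM, and which is right cannot be told from a selected list. The groups did not overlap at 12 of the 28 peaks, 10 lower (beside 35.8% of all peaks) and 2 higher (beside 4.88%).

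Of the 28 peaks, 12 (42.9%) lay in a Pol2 peak, against 2.79% of all listed peaks, 9 (32.1%) in an H3K4me3 peak, against 14.9%, and 0 in an H3K27me3 peak, against 8.36%. The Pol2 overlaps were in Nfib, Nfatc1 and Runx1, so the first share reflects few loci and not 12 independent cases.

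**Figure D5:**
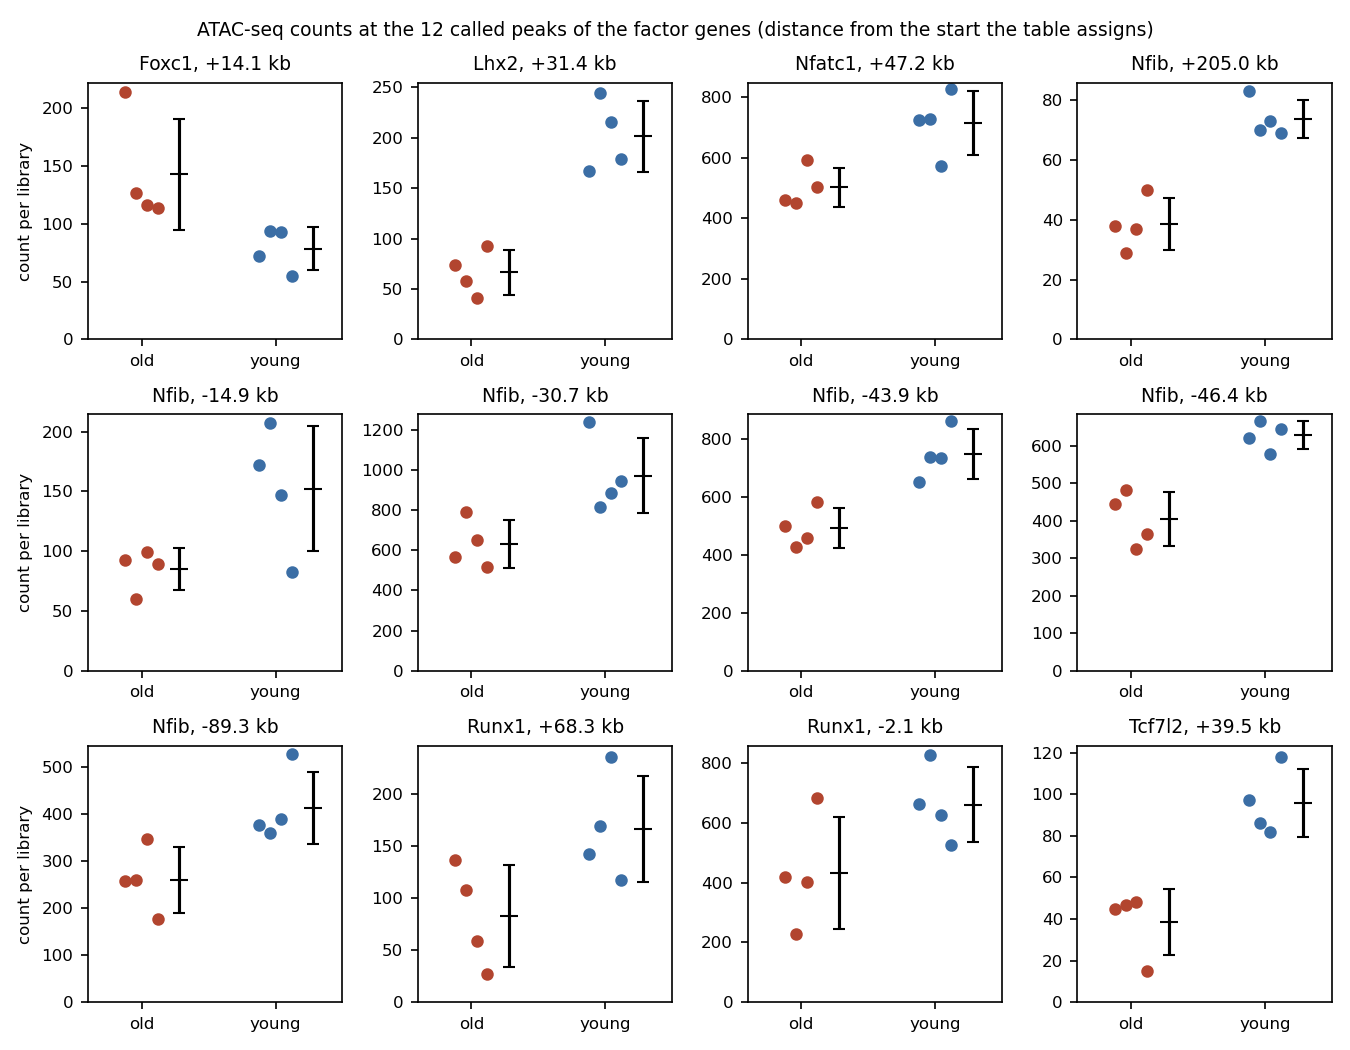
ATAC-seq counts as deposited in each of the 4 old and 4 young libraries at the 12 called peaks of the factor genes, with the distance in kb from the start the table assigns. Points are libraries, and bars give the mean and SD. The old mean lies above the young mean at Foxc1 and below it at the other 11 peaks.

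The largest difference was at a distal peak of Lhx2, 31.4 kb from the start the table assigns and beyond the end of the gene (chr2:38382751-38383150). Counts were 74, 58, 41 and 93 in the old libraries, and 167, 244, 215 and 179 in the young libraries. The groups did not overlap, and every old library was below every young one. The mean was 66.5 ± 22.2 in old and 201 ± 35 in young (SD, n = 4 each), a log2 fold change of −1.60 (edgeR adjusted p = 0.00695). It was the 1 lower call that stood under TMM as well (−0.99, edgeR adjusted p = 0.046), and with each library left out in turn the edgeR adjusted p stayed at or under 0.0255.

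At Foxc1 the single listed peak (chr13:31820701-31821050, 14.1 kb past the start, in an intron of another gene and inside the broad H3K4me3 peak of Foxc1) went the other way. It had 214, 127, 116 and 114 counts in the old libraries, and 72, 94, 93 and 55 in the young libraries. The groups did not overlap, but old replicate 1 stood far above the rest. The log2 fold change was 0.86 (edgeR adjusted p = 0.0432), and 1.42 with TMM (0.00343). Without old replicate 1 the edgeR adjusted p was 0.127, and the call was lost in 7 of the 8 omissions, that of old replicate 4 being the exception. H3K4me3 over the whole broad peak of Foxc1 was lower in old cells, as given above, and has no value for this stretch alone.

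Nfatc1 had 3 listed peaks, all intronic. The one 47.2 kb from the start the table assigns had 462, 452, 592 and 504 counts in the old libraries, and 726, 730, 572 and 828 in the young libraries. The groups overlapped, through the high count of old replicate 3 and the low one of young replicate 3. Its log2 fold change was −0.51 (edgeR adjusted p = 0.0346), and 0.10 with TMM. Leaving out any library but old replicate 3 or young replicate 3 raised the edgeR adjusted p over the threshold, up to 0.0738. A second peak, 11.3 kb from that start and inside the broad H3K4me3 peak, leaned the other way, with 243, 140, 278 and 200 counts in the old libraries and 144, 213, 114 and 79 in the young libraries. These groups overlapped, and the log2 fold change of 0.65 was not called without scaling (edgeR adjusted p = 0.0743) and was called with TMM (1.22, 0.0077). The third, 3.87 kb from it, had −0.53 and was not called.

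Nfib had the most listed peaks, from −138 kb to 216 kb from the start the table assigns, and 13 of its 14 were lower in old cells. Their counts summed to 3346, 3367, 3191 and 2853 in the old libraries, and 4976, 4603, 4428 and 4866 in the young libraries. The summed groups did not overlap, and neither did the totals over all listed peaks. Of its 6 called peaks 5 lay upstream of the gene and 1 at its 3′ end, and 0 in its introns.

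A trio of upstream Nfib peaks carried high counts. At −30.7 kb from the start (chr4:82536451-82538050) the counts were 567, 792, 651 and 515 in the old libraries, and 1239, 817, 885 and 944 in the young libraries (log2 fold change −0.62, edgeR adjusted p = 0.0222). At −43.9 kb (chr4:82549701-82550850) they were 502, 429, 458 and 585 in old, and 654, 738, 737 and 864 in young (−0.60, edgeR adjusted p = 0.0223). At −46.4 kb (chr4:82552151-82552850) they were 445, 481, 326 and 366 in old, and 621, 666, 579 and 644 in young (−0.63, edgeR adjusted p = 0.0225). In none of the 3 did the groups overlap. With TMM none of the 3 was called, and the log2 fold changes were −0.04, 0.01 and −0.05. Without scaling, the first lost its call without young replicate 1 (edgeR adjusted p = 0.0502), and the others without old replicate 3 (0.0502 and 0.055).

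The remaining called peaks of Nfib had larger fold changes on lower counts, and their calls were less stable to leaving out a library. At −89.3 kb from the start there were 258, 260, 347 and 176 counts in the old libraries, and 376, 360, 388 and 526 in the young libraries (−0.66, edgeR adjusted p = 0.0366). At −14.9 kb there were 93, 60, 99 and 89 in old, and 172, 207, 147 and 83 in young (−0.84, edgeR adjusted p = 0.0463). The groups overlapped at the second of these and not at the first. At the 3′ end (chr4:82293601-82293800) there were 38, 29, 37 and 50 counts in old, and 83, 70, 73 and 69 in young, with no overlap (−0.94, edgeR adjusted p = 0.0421). These calls were lost in 5 of 8 omissions at the first and in 7 of 8 at the others, with edgeR adjusted p up to 0.0873, 0.112 and 0.0802. With TMM none of these peaks was called (−0.07, −0.26 and −0.33). Past the 3′ end, at 216 kb, the 1 higher peak of Nfib had 240, 292, 227 and 333 counts in old, and 173, 226, 165 and 207 in young, again without overlap. It was called with TMM (1.11, edgeR adjusted p = 0.003) and not without scaling (0.50, 0.0744).

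Runx1 had 1 called peak in an intron and 1 before its distal start. The intronic peak 68.3 kb from the proximal start had 137, 108, 59 and 27 counts in the old libraries, and 143, 170, 236 and 118 in the young libraries. The groups overlapped, and old replicate 4 was lowest (−1.01, edgeR adjusted p = 0.0454). The peak at −2.13 kb from the distal start (chr16:92828201-92828950) had 417, 228, 402 and 683 counts in old, and 662, 826, 624 and 526 in young (−0.61, edgeR adjusted p = 0.0493). Here old replicate 4 lay within the young range, and the fold change was 0.02 with TMM. Each call was lost in 6 of the 8 omissions, with edgeR adjusted p up to 0.115 and 0.122. The third peak, 1.53 kb into the gene from the proximal start, was not called (−0.59, edgeR adjusted p = 0.0897).

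All 6 listed peaks of Tcf7l2 were lower in old cells, and 1 was called. That peak, 39.5 kb past the start the table assigns and outside the gene (chr19:55956901-55957150), had 45, 47, 48 and 15 counts in the old libraries, and 97, 86, 82 and 118 in the young libraries. The groups did not overlap, with old replicate 4 far below the other old libraries. The log2 fold change was −1.30 (edgeR adjusted p = 0.0245), it held in all 8 omissions (edgeR adjusted p at most 0.0452) and it was not called with TMM (−0.74, 0.346). The other 5 ran from −0.71 to −0.56, and their groups overlapped.

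Related genes were read in the same way from lists that this work drew up. Of 19 partners, cofactors and upstream signals, 8 had listed ATAC-seq peaks and 7 a peak called lower, Ctnnb1, Ldb2, Lef1, Smo, Tcf7, Tle2 and Tle4, with 18 of 24 peaks called lower and 0 higher without scaling, beside 46.4% and 5.43% of all listed peaks. With TMM 0 of the 24 were called lower and 1, at Cbfb, higher. All 17 genes with an H3K4me3 promoter peak had at least 1 called lower in the authors' deposited table, as had 6 of 6 genes with a Pol2 promoter peak. The shares of all such peaks, counted by peak and not by gene, were 94.3% and 79.1%. In the authors' deposited Pol2 table Tle1, which encodes a co-repressor of TCF proteins, had −4.21 (FDR 6e-06) at its promoter. Ctnnb1, which encodes β-catenin, had −1.48 (FDR 0.0438) at one promoter peak and −0.81 (FDR 0.334, not called) at another. H3K27me3 was called lower at promoters of Lef1 (−0.43) and Shh (−0.54) and at distal peaks of Tle3, in the authors' deposited table. That is 4 of 34 peaks lower and 0 higher, beside 2.6% and 2.66% of all H3K27me3 peaks. Lef1 and Shh were the only genes of this list with an H3K27me3 promoter peak, and 9.19% of all such promoter peaks were called lower.

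Of 13 genes reported downstream of the factors in skin, 4 had ATAC-seq peaks called lower without scaling, Cd34, Edn2, Lgr5 and Prlr, and 1, Inhbb, had a peak called higher (0.98, edgeR adjusted p = 0.043). That is 9 of 23 peaks lower and 1 higher, beside 46.4% and 5.43% of all listed peaks, and with TMM 1 was called lower, at Prlr, and 1 higher, at Inhbb. A distal peak of Prlr, the prolactin receptor gene, fell by 1.57 on the log2 scale, with 222 ± 52.8 counts in old and 658 ± 161 in young (SD, n = 4 each, edgeR adjusted p = 0.000834), and was called with TMM too (−0.98, 0.00228). All 13 genes had at least 1 H3K4me3 promoter peak called lower in the authors' deposited table, and 5 of 6 genes at least 1 Pol2 promoter peak. The shares of all such peaks, counted by peak and not by gene, were 94.3% and 79.1%. Further H3K4me3 promoter peaks of Prlr (−0.70), Cdkn1a (−0.85) and Inhba (0.47) were not called in the authors' deposited table. Nor were Pol2 promoter peaks of Lgr5 (−1.47), Cdkn1a (−0.53) and Stat3 (0.64). Another H3K4me3 peak of Cdkn1a was called higher (1.36, FDR 0.0187, authors' deposited table). Edn2, which encodes endothelin 2, Inhba, which encodes an activin subunit, and Wnt7b, a Wnt ligand gene, had H3K27me3 peaks called lower (7 of 30 peaks of the list, beside 2.6% of all), with −1.62 (FDR 1.18e-06) at the Wnt7b promoter in the authors' deposited table.

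Of 31 other transcription factors of follicle and epidermis, 19 had listed ATAC-seq peaks, and without scaling 15 had at least 1 called lower and 1, Msx2, called higher. That is 36 of 62 peaks lower and 1 higher, beside 46.4% and 5.43% of all listed peaks, and with TMM 0 were called lower and 4 higher, at Gli3, Klf4 and Msx2. All 27 genes with an H3K4me3 promoter peak had at least 1 called lower, as had 10 of 12 genes with a Pol2 promoter peak. The same held for 3 of 9 genes with an H3K27me3 promoter peak. The shares of all such promoter peaks, counted by peak and not by gene, were 94.3%, 79.1% and 9.19% in the authors' deposited tables. Over all their 102 H3K27me3 peaks, 9 were called lower and 5 higher, beside 2.6% and 2.66% of all, the higher ones at Tfap2c and Foxn1 in the authors' deposited table. Sox21, a hair lineage factor, was the 1 listed RNA and was called higher (1.22, DESeq2, authors' deposited table), while its H3K4me3 promoter peak had −2.52 (FDR 6.83e-14) in the authors' deposited table.

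Markers of other cells moved as well. In the authors' deposited RNA table Cd74, 1 of 4 immune markers listed, was called lower (−1.36, DESeq2 adjusted p = 2.36e-06), and Col1a2, 1 of 4 fibroblast markers listed, had −0.39 (0.0861). None of the 4 interfollicular, 4 melanocyte and 2 endothelial markers was listed, and neither was any of the 6 bulge markers. In ATAC-seq, peaks at Lor and Ivl, genes of the cornified envelope, were called lower without scaling (−0.80 and −0.61) and not with TMM. A distal peak at Col1a2 was called higher (0.84, and 1.42 with TMM). Of all listed peaks 46.4% were called lower and 5.43% higher without scaling. The other listed fibroblast peak, at Pdgfra, leaned lower and was not called (median of the 2 peaks 0.16). The 1 melanocyte peak (−0.51) and the 2 endothelial peaks (median −0.73) were not called, and immune markers had none. The part of such cells in the values of the 9 factors was not tested.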

How the data were processed

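The 28 libraries are hair follicle stem cells of old (24 months) and young (6 months) mice, grouped by the sample titles. Per the submitters' processing notes, STAR 2.5.2b aligned the RNA reads, featureCounts counted them and DESeq2 1.22.2 tested them. Per the file headers, each gene of the deposited RNA table has a mean normalized signal, a log2 fold change, its standard error, a Wald score, a p-value and an adjusted p-value. The table stops at an adjusted p of 0.1. BWA 0.7.12 aligned ATAC-seq and BWA 0.7.15 ChIP-seq reads, MACS2 2.2.7.1 called peaks and DiffBind 2.14.0 tested ChIP-seq peaks, again by the submitters' processing notes. The ChIP-seq tables deposited by the authors hold, for each merged peak, the log2 mean normalized read count of each age, their log2 difference (turned here to old over young), a p-value and an FDR, and how DiffBind normalized was not stated. For ATAC-seq the authors deposited whole-number counts of each library at each peak, with a log2 ratio of group means and a −log10 p-value. Every listed ATAC-seq peak reaches 2.00 for the last and 0.50 for the size of the log2 ratio, a selection made on the same libraries. Positions are on GRCm38 as deposited.

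Only the ATAC-seq counts were tested anew, over all 7849 peaks, with edgeR 4.0.16 in R 4.3.3 (quasi-likelihood F-test, filterByExpr, equal library sizes, two-sided, Benjamini-Hochberg adjustment, threshold 0.05). Libraries were left unscaled in the first place because scaling on a selected list recentres a change shared by most of it. TMM, total counts, DESeq2 1.42.0, no filter, the replicate number as a block, a threshold of 0.01 and leaving out each library were tried. The fit was tested on simulated data. For RNA and ChIP-seq the deposited adjusted p-values were used at 0.05. Figures used Python 3.11.15, pandas 2.3.3 and matplotlib 3.10.9. The text names every promoter peak of the 9 genes, every called peak and the peak of largest fold change per gene and table. The genes, the lists and the tests were chosen with earlier results of these data known. Where samples were not from separate mice, p-values measure only a technical spread.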

Additional observations from a re-analysis of the deposited data

Results flagged for a closer look

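In 4 of 56 sets of 4 libraries, at the 28 ATAC-seq peaks of the factors, 1 library stood apart by Dixon's criterion, which chance alone does in about 1 set in 20. At the Foxc1 peak starting at 31820701, old replicate 1 had 214 counts and the other old libraries 114 to 127. In the called Tcf7l2 peak starting at 55956901, old replicate 4 had 15 counts and the other old libraries 45 to 48. The Nfib peak starting at 82595051 had 526 counts in young replicate 4, against 360 to 388 in the other young libraries. The Tcf7l2 peak starting at 55785051, which was not called, had 194 counts in young replicate 1, against 110 to 117 in the other young libraries.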

How the results depend on the processing

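The ATAC-seq peaks of the 9 factors called lower numbered 11 with no scaling, 1 with TMM, 1 with the total count as library size, 1 with DESeq2 and its own size factors, 1 at a threshold of 0.01, and 5 to 8 when 1 library was left out. Those called higher numbered 1, and 3, 3, 3, 0 and 0 to 1 in the same order. DESeq2 with size factors of 1 called 16 lower, and no filter on low counts changed no call. With the replicate number as a block 1 was called lower and 0 higher, but samples of the same number did not deviate together (r from −0.186 to 0.0354), so the pairing has no support in the data. The sign turned at 3 called peaks with TMM, Nfatc1 at 80660151 (0.099), Nfib at 82549701 (0.013) and Runx1 at 92828201 (0.018), at the same 3 with DESeq2's own size factors (0.089, 0.0034 and 0.011) and at the first with total counts (0.027). These scalings move all listed peaks up, by their construction.

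At an FDR under 0.01 the deposited tables call 3 Pol2 peaks lower in place of 9, and 1 H3K27me3 peak higher in place of 2. The count of H3K27me3 peaks called higher is 1 without the peak at the table's lowest level and 0 among promoter peaks. Promoter peaks alone give 10 H3K4me3 calls in place of 22. At an adjusted p under 0.1, 1 RNA (Nfatc1) is called in place of 0. Requiring 0.5 of the H3K4me3 peak to overlap H3K27me3 gives 0 promoters in place of 1. No ChIP-seq or RNA result could be repeated with a sample left out, because values per sample were not used here.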

Other observations

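A pair of listed ATAC-seq peaks lay within 20 kb of Sox9 and are assigned by the table to BC006965. The one at chr11:112762701-112763000 had 90, 164, 116 and 175 counts in the old libraries, and 84, 124, 53 and 104 in the young libraries. The one at chr11:112771851-112772250 had 171, 145, 197 and 153 in the old libraries, and 71, 150, 104 and 86 in the young libraries. The groups overlapped at both, and neither was called without scaling (log2 fold changes 0.58 and 0.70, edgeR adjusted p = 0.116 and 0.0589), while both were called higher with TMM (1.20 and 1.28, edgeR adjusted p = 0.0166 and 0.00461). At Sox9 itself H3K4me3 and Pol2 were lower in old cells.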
